A study of Arabidopsis thaliana with 45 samples.

Results

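The cellulose synthase genes CESA1 to CESA10 of Arabidopsis thaliana were followed through all 45 RNA-seq libraries of the series. The members were taken by gene identifier, and all 10 had a row among the 28545 genes of the count tables. Wild-type Col-0 seedlings were grown for 7 days on coupons of solid medium, in 24 h light interrupted by 8 h of dark storage, and were then placed in Kennedy Fixation Tubes (KFTs), sealed devices that flood the sample with RNAlater. Every group shared this genotype, age and fixative. Undisturbed (quiescent) KFTs were fixed after 4 h (Q1), 4 h 14 min (Q2), 4 h 18 min (Q3) and 4 h 28 min (Q4) per the labels. A further KFT was rotated on a clinostat for 4 min between the Q2 and Q3 times. Leaves (Q1L, Q2L, Q3L, Q4L and clinorotated CL) and roots (Q1R, Q2R, Q3R, Q4R and clinorotated CR) of these plants were sequenced separately. Roots alone were sequenced from 4 more KFTs at the Q1 time (Q1A, Q1B, Q1C, Q1D) and from a Petri plate without a KFT (Q1P). Each of the 15 groups had 3 libraries, each of pooled plants, and each time point was a single KFT, so that a time and its tube cannot be told apart.

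Cellulose is made at the plasma membrane by rosette complexes that contain several different CESA proteins. In Arabidopsis, complexes of the growing primary wall hold CESA1, CESA3 and a member of the CESA6 class (CESA2, CESA5, CESA6 or CESA9), whereas complexes of the thick secondary wall of xylem vessels and fibres hold CESA4, CESA7 and CESA8. Loss of a secondary wall member collapses the xylem, hence the names IRX3 for CESA7 and IRX1 for CESA8, while CEV1 is another name for CESA3. CESA9 is known from the seed coat, and CESA10 is the closest relative of CESA1.

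In the RefSeq annotation of TAIR10.1 the genes lie on chromosomes 2, 4 and 5. CESA1 (AT4G32410) occupies chromosome 4 from 15640490 to 15646844, CESA2 (AT4G39350) chromosome 4 from 18296388 to 18302192, and CESA8 (AT4G18780) chromosome 4 from 10312624 to 10316886. CESA3 (AT5G05170) lies on chromosome 5 from 1530132 to 1535558 and CESA5 (AT5G09870) on chromosome 5 from 3072870 to 3078416. CESA4 (AT5G44030) lies on chromosome 5 from 17714390 to 17719723, CESA6 (AT5G64740) from 25881033 to 25886728, and CESA7 (AT5G17420) from 5736630 to 5741500. CESA9 (AT2G21770) and CESA10 (AT2G25540) lie on chromosome 2, from 9284391 to 9289744 and from 10866822 to 10872243. The genes have 11 to 15 exons, 3347 to 4247 exonic bases and coding sequences of 2958 to 3267 bases. Coding sequences of the pairs were 66.4% to 85.7% identical, with CESA5 and CESA6 the closest at 85.7%, CESA2 and CESA9 at 84.6%, and CESA1 and CESA10 at 84%. Exonic words of 40 bases shared between members numbered 11 for CESA5 with CESA6, 2 for CESA2 with CESA9 and 0 for the other pairs, and matches elsewhere in the genome were not searched. Of the exonic bases of CESA8, 16.8% overlap genes on the opposite strand, and one of these, AT4G18770, had a mean of 0.0367 CPM in roots and 0.0397 CPM in leaves. No level is given here for the other, AT4G06845. Overlaps of the other members covered at most 2.48% of their exons. CESA4 shares 2.17% of its exonic bases with AT5G44020, on the same strand, and AT5G44040. AT5G44020 averaged 359 CPM in roots and 413 CPM in leaves, and AT5G44040 30.7 and 16.6 CPM. Their part in the CESA4 counts was not tested.

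The bases just before the annotated starts of the 3 secondary wall members are shown because these genes varied closely together across the root libraries. Motifs known from the secondary wall program were searched on both strands: the tracheary element-regulating element TERE (CTTNAAAGCNA) and the secondary wall MYB-responsive element SMRE (ACCAAAC or ACCAAAT or ACCAACC or ACCAACT or ACCTAAC or ACCTAAT or ACCTACC or ACCTACT). Sequences are from the RefSeq TAIR10.1 genome, 5′ to 3′ on the gene's own strand, with motif matches in capitals. The CESA4 stretch is kept to 30 bases because of the neighbouring gene AT5G44020 on the same strand. That gene also overlaps the stretch shown and CESA4 itself. The CESA8 stretch overlaps AT4G06845, a gene on the opposite strand.
CESA4, chr5:17714360-17714389, plus strand: tacataataaCTTGAAAGCTActctaagtt
CESA7, chr5:5741501-5741800, minus strand: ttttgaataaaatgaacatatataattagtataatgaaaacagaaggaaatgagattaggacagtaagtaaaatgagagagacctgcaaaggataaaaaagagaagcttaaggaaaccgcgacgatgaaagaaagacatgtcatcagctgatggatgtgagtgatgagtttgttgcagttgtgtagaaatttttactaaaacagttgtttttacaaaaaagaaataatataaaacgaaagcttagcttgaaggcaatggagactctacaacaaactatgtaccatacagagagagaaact
CESA8, chr4:10316887-10317186, minus strand: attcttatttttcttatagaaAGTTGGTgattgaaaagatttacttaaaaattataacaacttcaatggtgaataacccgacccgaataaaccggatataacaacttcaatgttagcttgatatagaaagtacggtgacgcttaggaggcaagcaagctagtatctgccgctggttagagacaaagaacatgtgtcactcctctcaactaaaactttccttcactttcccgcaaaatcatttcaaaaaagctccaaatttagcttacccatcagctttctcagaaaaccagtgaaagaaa
The capitals in the CESA4 stretch are a TERE match, 20 to 10 bases before the gene start. This was the only TERE match in the 300 bases before any member, and 0.43% of the 27443 windows of that length in the genome held one. The capitals in the CESA8 stretch are an SMRE match on the opposite strand, while the CESA7 stretch held neither motif. SMRE matches also occurred before CESA1, CESA4, CESA5 and CESA9, but 33.9% of all windows held this motif. The brassinosteroid response element (CGTGCG or CGTGTG), found in 7.64% of all windows, occurred only before CESA10.

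Levels are given as CPM, the counts of a gene scaled to a common library total. Counts per library ranged from 29203427 to 54634588 in leaves and from 32390577 to 117091661 in roots. The tissue labels held: 6 leaf markers summed to 15835 to 20931 CPM in leaves and 45.54 to 376.1 CPM in roots, and 7 root markers to 269.4 to 472.9 CPM in roots and 40.44 to 61.77 CPM in leaves. Q4L replicate 1 stood apart, with 17817 genes with counts against 23057 and 22904 in its group and a mean correlation of 0.892 with the other leaf libraries, whose own range was 0.938 to 0.971. One label of Q4L replicate 1, its source name, gives Q3 while its title and treatment give Q4, and it was taken as Q4L. Q1B replicate 2 carried 10462 CPM of 3 seed storage and oil body markers, against at most 99.09 CPM in any other root library.

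Levels are compared between members as CPM per kilobase of exon. In roots the order by median was CESA3, CESA1, CESA6, CESA2, CESA5, CESA4, CESA7, CESA8, CESA9 and CESA10, with medians of 144.2, 118.3, 72.31, 32.29, 11.21, 9.939, 9.018, 6.276, 0.1448 and 0.0329 CPM per kb over 30 libraries. CESA3 was above CESA1 in 29 of 30 root libraries, and CESA6 was below CESA1 in all 30. CESA5 and CESA4 did not separate, with CESA5 higher in 22 of 30 libraries. In leaves CESA3, CESA1 and CESA6 again led, with medians of 71.59, 55.3 and 38.19 CPM per kb over 15 libraries. CESA5 (19.36) and CESA2 (18.09) followed in leaves, CESA5 being higher in 11 of 15 libraries. The secondary wall members CESA4, CESA7 and CESA8 had leaf medians of 3.81, 3.205 and 2.139 CPM per kb. CESA9 (0.499) and CESA10 (0.1028) were again last. Without Q4L replicate 1 the leaf medians were 72.99, 55.89 and 38.22 CPM per kb for CESA3, CESA1 and CESA6, and the order of the members was the same.

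The genes of the core primary wall complex thus held most of the summed CESA level. On the same scale per length, CESA1, CESA3 and CESA6 together made up 82.68% ± 1.42 (SD, n = 30) of the sum in roots and 78.56% ± 2.392 (SD, n = 15) in leaves (78.84% ± 2.223 without Q4L replicate 1). The secondary wall members made up 6.421% ± 1.514 in roots and 4.058% ± 1.252 in leaves (4.267% ± 0.9911 without Q4L replicate 1). The CESA6 relatives CESA2, CESA5 and CESA9 together made up 10.89% ± 0.9558 in roots and 17.32% ± 2.292 in leaves (16.83% ± 1.35 without that library). CESA5 alone made up 2.853% ± 0.3682 of the root sum and 8.731% ± 1.156 of the leaf sum (8.526% ± 0.8748 without it). The level of CESA5 relative to CESA6 was 0.108 to 0.1893 in the 30 root libraries and 0.3284 to 0.66 in the 15 leaf libraries, ranges that did not meet. The 0.66 is Q4L replicate 1, and the highest leaf value without it was 0.5718.

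**Figure D1:**
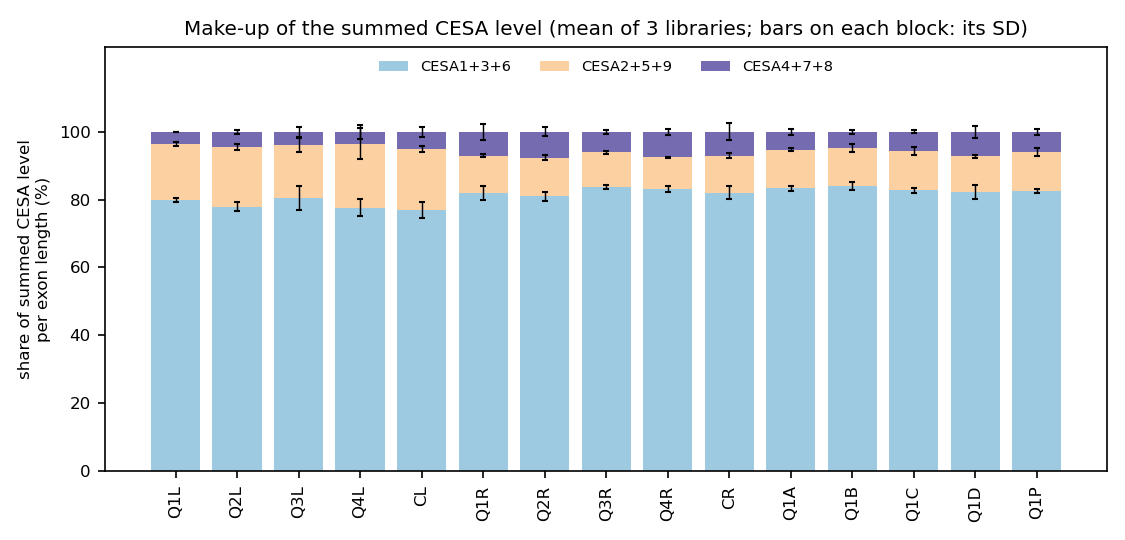
Share of the summed CESA level per exon length (y axis, percent) in each of the 15 groups (x axis), as stacked means of 3 libraries with the SD of each block. CESA1, CESA3 and CESA6 (bottom block) held the largest share in every group, and the CESA2, CESA5 and CESA9 block was larger in the 5 leaf groups, 17.32% on average, than in the 10 root groups, 10.89%.

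**Figure D2:**
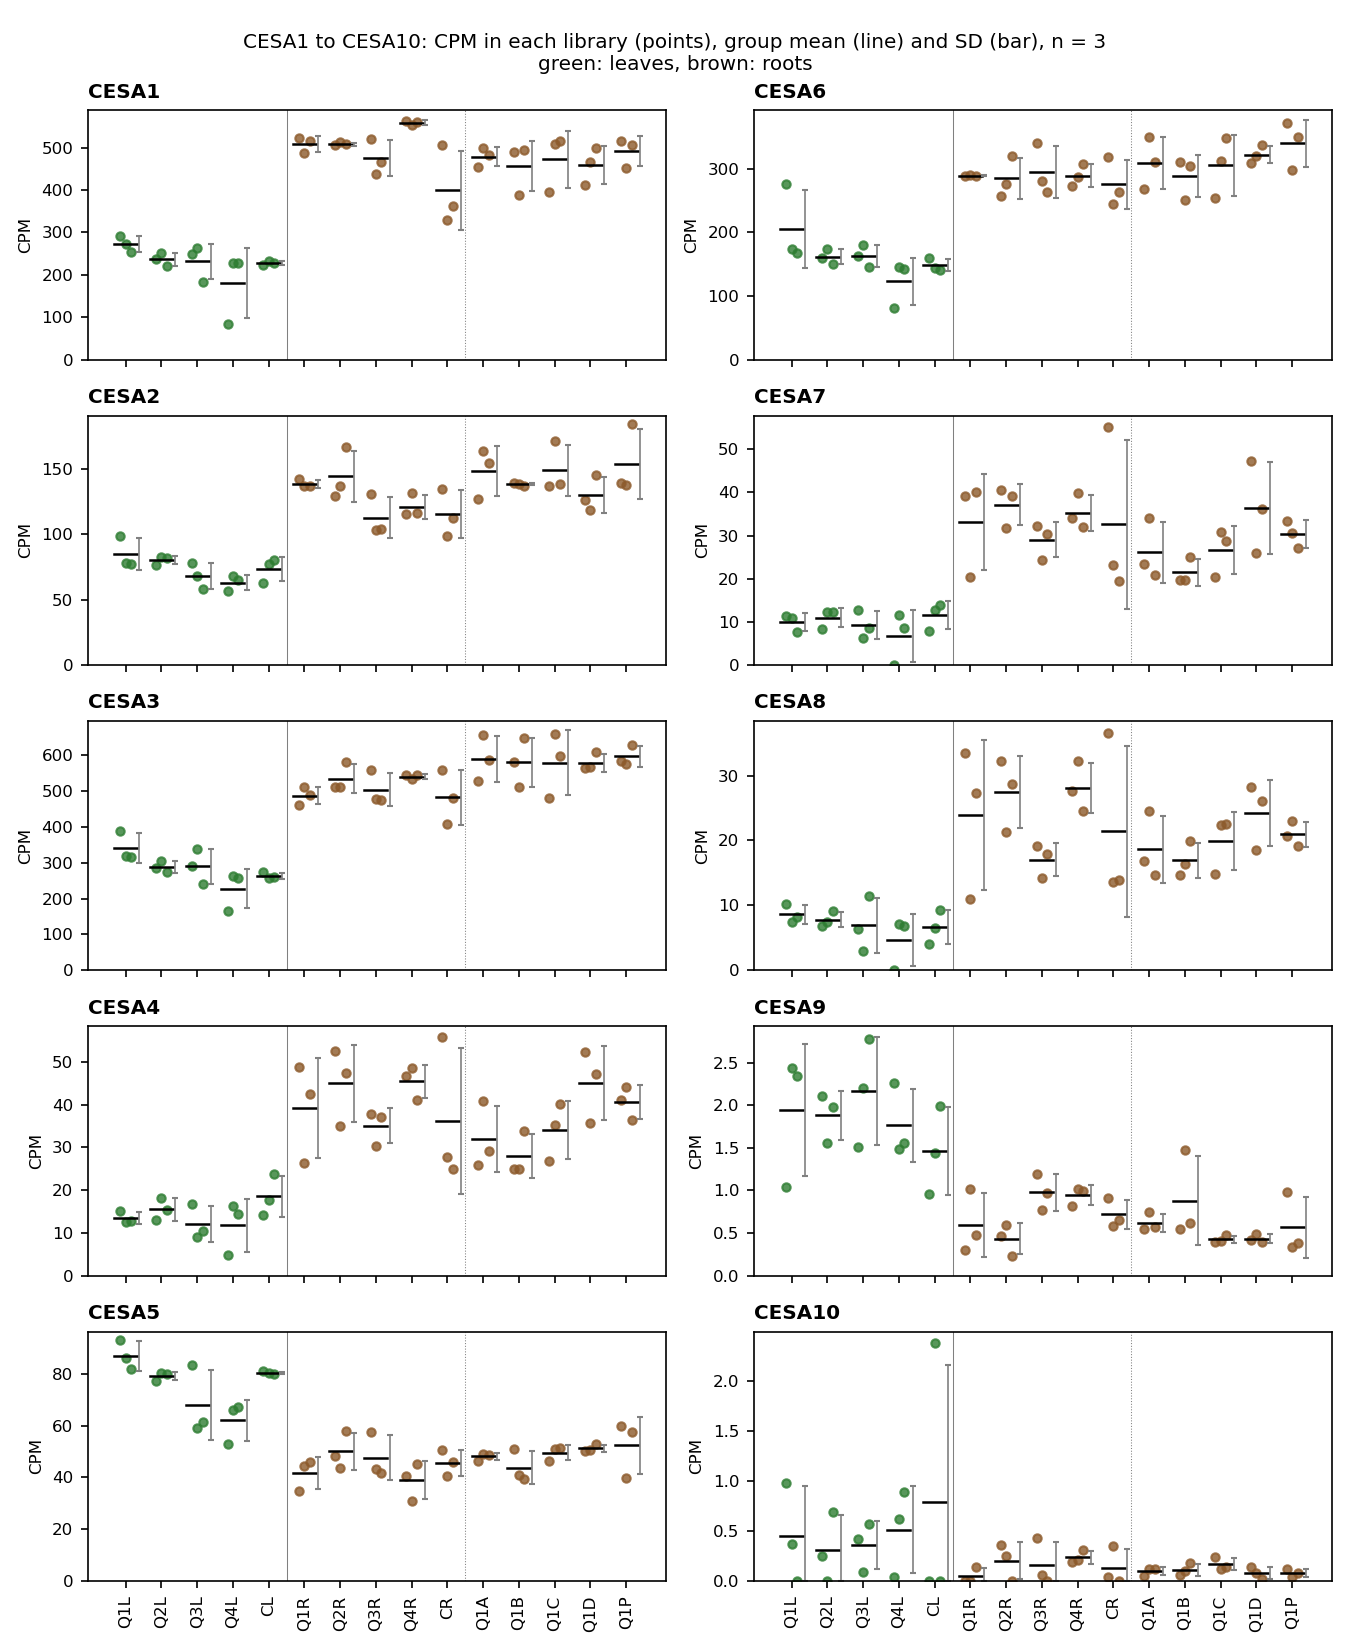
CPM of each CESA gene (y axes, each from 0) in the 15 groups (x axes). Points are single libraries, green for leaves and brown for roots, black lines are group means and grey bars are SD with n = 3. CESA5 and CESA9 were higher in leaves, the other members except CESA10 were higher in roots, and CESA7 and CESA8 were at 0 in 1 Q4L library.

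Roots and leaves were compared over the undisturbed plants of Q1 to Q4, 12 libraries against 12. Of the 10 members, 9 differed between the tissues by edgeR's quasi-likelihood test at an adjusted p of at most 0.05, 7 of them higher in roots and 2 higher in leaves. Such calls were common, since 71.5% of the 23436 genes tested passed the same threshold, 36.6% higher in roots and 35% higher in leaves. The secondary wall members had the largest root excess, and CESA5 and CESA9 were the members with a leaf excess. Whole organs were sequenced, so that more cells of a type and more RNA per cell cannot be told apart.

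CESA1, an obligate primary wall subunit, measured 437.1 CPM at the lowest, 514.3 at the median and 563.5 at the highest in the 12 root libraries, against 84.58, 243.3 and 291.5 CPM in leaves. The tissues did not overlap, and edgeR put the root level 1.8-fold higher (log2 fold change 0.85, SE 0.10, adjusted p = 2.21e-07). CESA3, the other obligate subunit, ranged from 462.2 to 582 CPM with a median of 511.6 in roots and from 164.2 to 388.3 CPM with a median of 288.4 in leaves. Its tissues did not overlap in CPM either, and edgeR put roots 1.45-fold higher (log2 0.53, SE 0.07, adjusted p = 5.5e-07). CESA6 ranged from 257.9 to 340.6 CPM in roots and from 80.71 to 276.1 CPM in leaves, with medians of 287.8 and 161.2 CPM. One leaf library, Q1L replicate 1, reached into the root range, and the root excess was 1.44-fold (log2 0.52, SE 0.09, adjusted p = 1.61e-05). CESA2, a CESA6 relative, was 1.39-fold higher in roots (log2 0.48, SE 0.06, adjusted p = 7.82e-07), with 103.4 to 166.4 CPM against 56.29 to 98.92 CPM.

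CESA5, the closest relative of CESA6, went the other way. It measured 30.81, 44.08 and 57.93 CPM (lowest, median and highest) in roots and 52.84, 78.5 and 93.2 CPM in leaves. The only leaf value inside the root range was the 52.84 CPM of Q4L replicate 1, and leaves were 2.08-fold higher (log2 -1.06, SE 0.08, adjusted p = 3.19e-10). CESA9 was low in both organs, at 0.2328 to 1.195 CPM in roots and 1.045 to 2.779 CPM in leaves, and was 3.51-fold higher in leaves (log2 -1.81, SE 0.31, adjusted p = 2.79e-05). CESA10 was at or near 0, with medians of 0.1621 CPM in roots and 0.3927 CPM in leaves and libraries without a count in both, and its difference did not pass (log2 -1.82, SE 1.00, adjusted p = 0.108). Without Q1R replicate 3 it passed (log2 -2.89, adjusted p = 0.0235), the one refit of 24 that called it.

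All 3 secondary wall members were higher in roots. CESA4 measured 26.25, 41.8 and 52.59 CPM (lowest, median and highest) in roots and 4.691, 13.64 and 18.21 CPM in leaves, a 2.5-fold root excess (log2 1.32, SE 0.15, adjusted p = 8.69e-08). CESA7 measured 20.36, 33.16 and 40.6 CPM in roots and 0, 9.77 and 12.78 CPM in leaves, 2.97-fold (log2 1.57, SE 0.34, adjusted p = 0.000353). CESA8 measured 10.99, 25.88 and 33.39 CPM in roots and 0, 7.269 and 11.36 CPM in leaves, 2.79-fold (log2 1.48, SE 0.36, adjusted p = 0.001). Root and leaf libraries did not overlap for CESA4 and CESA7, and met for CESA8, where Q3L replicate 3 with 11.36 CPM exceeded Q1R replicate 2 with 10.99 CPM. The 2 zeros are both Q4L replicate 1, where 0 counts allow up to 0.1027 CPM, counting error only. Without that library the log2 fold changes were 1.43 (SE 0.14) for CESA7, 1.34 (SE 0.19) for CESA8, 1.24 for CESA4 and 0.77 for CESA1, all still called. CESA5 then also separated, so that 6 members did not overlap in place of 5 (36.1% of all tested genes did not overlap in CPM with all 24 libraries).

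Of the 9 members called, 5 had at least a 2-fold change, namely CESA4, CESA5, CESA7, CESA8 and CESA9, against 44.2% of all genes tested. The median log2 fold change was 0.529 over the 10 members and 0.035 over all genes. The scale bears on these sizes, since leaf libraries had trimmed mean of M-values (TMM) factors of 0.791 to 0.923 and root libraries of 1.03 to 1.12. Plain CPM therefore gives root-minus-leaf log2 differences 0.34 higher than the fold changes above. On the TMM scale 5 members did not overlap, 3 with roots above (CESA1, CESA4 and CESA7) and 2 with leaves above (CESA5 and CESA9). CESA2 and CESA3, which did not overlap in plain CPM, overlapped on that scale. The share of all genes that did not overlap on the TMM scale was not computed. On both scales the direction of the group means was the same in all 5 conditions (Q1 to Q4 and clinorotation) for every member, with root-to-leaf CPM ratios of 1.75 to 3.1 for CESA1, 1.95 to 3.87 for CESA4, 2.82 to 5.24 for CESA7 and 2.46 to 6.04 for CESA8, and leaf-to-root ratios of 1.43 to 2.09 for CESA5.

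**Figure D3:**
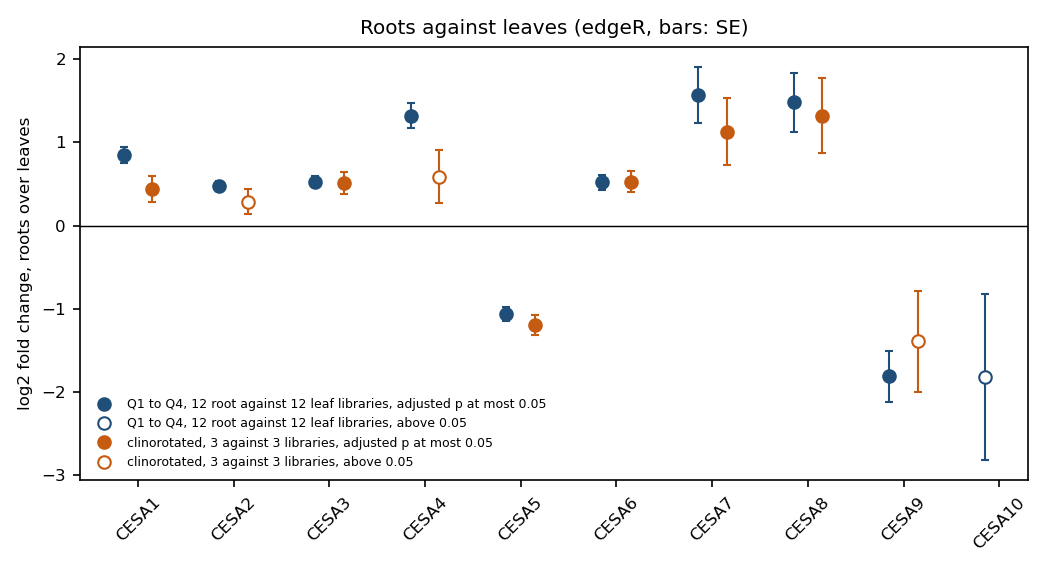
Log2 fold change of roots over leaves (y axis) for each CESA gene (x axis) in undisturbed plants (blue, 12 against 12 libraries) and clinorotated plants (orange, 3 against 3), with SE bars and filled points where the adjusted p was at most 0.05. CESA5 lay near -1.06 and -1.19, and CESA4, CESA7 and CESA8 were the members with the largest positive values in undisturbed plants, 1.32 to 1.57.

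Genes that work beside the CESA proteins were counted in the same comparison. Of 16 partners of the complex (trafficking, microtubule linkage, the KORRIGAN glucanase, sucrose synthases), 15 were tested, 10 were higher in roots and 1 was higher in leaves, with a median log2 fold change of 0.59. CC2, which links the complex to microtubules, measured 43.2 CPM ± 5.73 in roots and 2.14 CPM ± 0.755 in leaves (SD, n = 12 each; log2 4.01, SE 0.19, adjusted p = 5.12e-14). COB, a membrane-anchored protein needed for oriented cellulose deposition, measured 277 CPM ± 35 and 78.5 CPM ± 18.9 (log2 1.5, SE 0.09, adjusted p = 1.69e-12). The sucrose synthases SUS4 and SUS1, which can supply UDP-glucose, had log2 fold changes of 3.93 and 2.09.

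Of 17 cellulose synthase-like genes, 16 were tested, 6 were higher in roots and 5 in leaves, with a median log2 fold change of 0.43, counts close to the shares of all genes given above (36.6% and 35%). CSLA2, a glucomannan synthase, measured 166 CPM ± 21.8 in roots and 34.1 CPM ± 8.29 in leaves (log2 1.97), and CSLC12, of the xyloglucan backbone family, 16.2 ± 3.58 and 2.5 ± 1.06 CPM (log2 2.44). CSLD6 had no count in any of the 12 leaf libraries and averaged 0.648 CPM in roots. CSLG3 was the leaf counterpart, with 8.84 CPM ± 3.33 in leaves and no count in 8 of 12 root libraries.

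Genes of the secondary wall program leaned to roots with CESA4, CESA7 and CESA8. Of 15 regulators, 11 were tested and 8 were higher in roots, none in leaves, with a median log2 fold change of 1.73. KNAT7, a homeodomain regulator, measured 30 CPM ± 7.2 in roots and 3.11 CPM ± 1.37 in leaves (log2 2.95, adjusted p = 7.52e-11), MYB46, a master switch, 4.31 ± 1.4 and 0.688 ± 0.484 CPM (log2 2.34), and SND3, a NAC factor, 6.56 ± 1.44 and 0.697 ± 0.458 CPM (log2 2.96). MYB63, a lignin regulator, averaged 10.7 CPM in roots and had no count in 6 of 12 leaf libraries. Of 19 enzymes and structural proteins of secondary walls and xylem, 17 were higher in roots and none in leaves, with a median of 1.99. The xylan genes FRA8, IRX15L, IRX15 and IRX9 led with log2 fold changes of 3.59, 2.97, 3.64 and 2.79.

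Clinorotated roots and leaves, 3 libraries each, gave a second comparison of the tissues in other plants. Of 9 members tested, 6 were called, CESA1, CESA3, CESA6, CESA7 and CESA8 higher in roots and CESA5 higher in leaves, against 56.3% of the 21602 genes tested (28.9% higher in roots and 27.3% in leaves). CESA5 measured 50.46, 40.32 and 45.8 CPM in the 3 CR libraries and 80.94, 80.24 and 80.1 CPM in the 3 CL libraries. Its leaf values lay within 1 CPM of each other, and leaves were 2.27-fold higher (log2 -1.19, SE 0.12, adjusted p = 5.09e-05). CESA3 (log2 0.51, adjusted p = 0.00978) and CESA6 (log2 0.53, adjusted p = 0.00716) were, with CESA5, called in all 6 refits that left out 1 library.

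CESA1 measured 505.6, 329.5 and 362.4 CPM in CR and 223.8, 233.4 and 228.7 CPM in CL (log2 0.44, SE 0.16, adjusted p = 0.0422). CESA7 measured 55.05, 23.14 and 19.54 CPM in CR and 7.921, 12.77 and 14 CPM in CL (log2 1.13, SE 0.40, adjusted p = 0.0387). CESA8 measured 36.58, 13.6 and 13.95 CPM in CR and 4.044, 6.49 and 9.308 CPM in CL (log2 1.32, SE 0.45, adjusted p = 0.0339). In each case CR replicate 1 was well above its 2 group mates. That library was also the deepest of all 45, with 117091661 counts. CR replicates 2 and 3 had 34273236 and 48974482, and the part of depth was not tested. CESA7 and CESA8 were each called in 3 of 6 refits with 1 library left out. The calls were lost without CR replicate 1 (log2 0.57, adjusted p = 0.121, and log2 0.75, adjusted p = 0.126), without CL replicate 1 (adjusted p = 0.109 and 0.0916) and without CL replicate 2 (adjusted p = 0.0651 and 0.0727). CR replicate 1 was also high in the summed secondary wall and xylem enzymes, 642.6 CPM against 414.9 and 395.5 CPM, and the part of this in the result was not tested. CESA1 lost its call without any 1 of the 3 CL libraries, its adjusted p over the 6 refits running from 0.0153 to 0.102. Roots and leaves were dissected from the same sets of plants, and with the replicate number as a block 3 members were called in place of 6, with adjusted p of 0.0644 for CESA1, 0.107 for CESA7 and 0.089 for CESA8. CESA4 (log2 0.59, adjusted p = 0.153), CESA2 (log2 0.29, adjusted p = 0.131) and CESA9 (log2 -1.39, adjusted p = 0.0857) did not pass, and CESA10 was too low to test. In plain CPM the tissues did not overlap for 9 of 10 members, 7 with roots and 2 with leaves above, against 71.2% of all genes tested. On the TMM scale it was 7 of 10, 5 with roots and 2 with leaves above, and the share of all genes on that scale was not computed. Of the lists, 15 of 19 secondary wall and xylem enzymes and 5 of 11 regulators were called higher in clinorotated roots and none in leaves, 8 of 15 partners were higher in roots and 1 in leaves, and 7 of 15 cellulose synthase-like genes were higher in roots and 5 in leaves.

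Whether the KFT itself changes the root transcriptome was asked by setting the 4 Q1 KFTs against the Petri plate. No member was called by edgeR, 0 of 9 tested, none had an unadjusted p under 0.05 and DESeq2 called none, against 0.847% of all genes by edgeR. CESA1 averaged 492 CPM ± 34.8 on the plate, with single libraries at 516.5, 452.2 and 507.4 CPM, and 389.1 to 515.2 CPM over the 12 KFT libraries. The ranges overlapped, as they did for CESA4, with 41.12, 44.21 and 36.33 CPM on the plate and 24.95 to 52.38 CPM in the KFTs. Member log2 fold changes lay between -0.25 (CESA4, SE 0.16) and 0.00. Among the cellulose synthase-like, partner, regulator and enzyme lists, only CSLC12 was called (log2 1.26, adjusted p = 0.0238). With counts summed per vessel edgeR called 61 of 23678 genes, against 186 of 21958 with single libraries.

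Each KFT was also set against the same 3 plate libraries, and 0 of 9 members were called in any of the 4 comparisons by edgeR or DESeq2, against 0.0613% of genes for Q1A, 0.0893% for Q1B, 0.0471% for Q1C and 0.17% for Q1D. Unadjusted p-values under 0.05 came only from CESA4 (log2 -0.55, adjusted p = 0.443) and CESA7 (log2 -0.50, adjusted p = 0.463) in Q1B. Without Q1B replicate 2 these were log2 -0.48 and -0.45, not called. Among the 4 KFTs edgeR's F test called 0% of genes and no member, and DESeq2 called 94 genes and no member, CESA4 and CESA7 being the members with an unadjusted p under 0.05. Q1B replicate 2, the library with seed transcripts, had the highest CESA9 level of all 30 root libraries, 1.478 CPM against 0.5409 and 0.6186 CPM in its group. CESA9 is the member known from the seed coat, and the part of the seed transcripts in its level was not tested.

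Q1R carries the same treatment label as Q1A to Q1D but came from another KFT. Its count columns are also named in another format. The Q1R libraries had 20861, 21063 and 22319 genes with counts, against 23359 to 24668 in Q1A to Q1D. The tube and any difference in the handling of the libraries cannot be told apart. Between Q1R and these KFTs 27.5% of genes were called, against 0% among Q1A to Q1D by the F test. Of the members only CESA3 was called. It measured 462.2, 510.9 and 488.8 CPM in Q1R and 480.8 to 659.6 CPM in the 12 KFT libraries, ranges that overlap, and was lower in Q1R (log2 -0.30, SE 0.10, adjusted p = 0.0395). The call stood in 6 of 15 refits with 1 library left out, with adjusted p from 0.0171 to 0.155, and was lost with no filter on low counts. CESA5 came next (log2 -0.25, adjusted p = 0.0627) and was called by DESeq2. The secondary wall members were not called, at log2 0.15 (SE 0.19) for CESA4, 0.25 (SE 0.21) for CESA7 and 0.23 (SE 0.25) for CESA8. Of the 19 enzymes and structural proteins of secondary walls and xylem, 7 were called higher in Q1R and 1 lower, led by TED7 (log2 1.10), FLA12 (0.84), FLA11 (0.74) and FRA8 (0.72), and of 11 regulators 2 were higher, VND6 (log2 1.94) and KNAT7 (0.72). In the same comparison 2 of 4 leaf markers were called higher in Q1R (median log2 0.83), and of 7 root markers 2 were higher and 2 lower; their part in these counts was not tested.

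Across the quiescent times no member was called in either tissue by edgeR or DESeq2. Each time was set against the same Q1 libraries of its tissue, and the share of genes called was 0.363% for Q2R, 4.54% for Q3R, 0.913% for Q4R, 0% for Q2L, 0.00979% for Q3L and 0% for Q4L. No member had an unadjusted p under 0.05 at Q2R, Q3R, Q4R, Q2L or Q3L. CESA1 illustrates the root values, with 522.4, 488.4 and 516.1 CPM in Q1R, 505.2, 512.5 and 507.8 CPM in Q2R, 520.9, 437.1 and 466.7 CPM in Q3R and 563.5, 553.9 and 560.5 CPM in Q4R. The 3 Q4R libraries were the highest of these 12, but CESA1 was not called there. CESA8 measured 33.39, 10.99 and 27.3 CPM in Q1R and 19.09, 14.17 and 17.85 CPM in Q3R (log2 -0.43), with Q1R replicate 2 below every Q3R library. That library was also low in summed secondary wall and xylem enzymes, 402.2 CPM against 603.8 and 676.5 CPM in its group. Around the members, Q3R was lower than Q1R in 2 of 11 regulators, KNAT7 (log2 -0.76, adjusted p = 0.0165) and VNI2 (log2 -0.59, adjusted p = 0.0164), in the partner CTL1, a chitinase-like protein (log2 -0.41, adjusted p = 0.0311), and in 2 of 19 enzymes and structural proteins, LAC17, a lignin laccase (log2 -0.86, adjusted p = 0.0318) and TED7, a xylem protein (log2 -1.24, adjusted p = 0.0106). In the same comparison 1 of 4 leaf markers (median log2 -0.99) and 1 of 7 root markers were called lower, and the 1 seed marker tested was higher, and their part was not tested.

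In Q4L the 3 members with an unadjusted p under 0.05 were CESA3 (log2 -0.51), CESA5 (log2 -0.41) and CESA6 (log2 -0.67), each with an adjusted p of 0.955. Without Q4L replicate 1 they were -0.38 for CESA3, -0.38 for CESA5 and -0.49 for CESA6, not called. That library measured 164.2 CPM of CESA3 against 262.8 and 256.3 CPM in its group, and 84.58 CPM of CESA1 against 228.3 and 228.8 CPM. The CESA1 log2 fold change moved from -0.54 (SE 0.31) to -0.24 (SE 0.13) without it. The same library had no count for 6 of 19 secondary wall and xylem enzymes and 10 of 14 regulators. Some regulators were at 0 in other leaf libraries too. Over Q1 to Q4, NST2 and NST3 had no count in any of the 12 leaf libraries, NST1 in 11 and MYB63 in 6.

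Clinorotation was compared with the time-matched Q3, with Q1, and with Q1, Q2 and Q3 pooled, and no member was called in either tissue by edgeR or DESeq2. The background was 0.00475%, 1.6% and 0.0409% of genes in roots and 0%, 0.0682% and 0% in leaves. These comparisons share the CR or CL libraries. CESA1 in roots came nearest, with 505.6, 329.5 and 362.4 CPM in CR against 520.9, 437.1 and 466.7 CPM in Q3R. CR replicate 1 lay within the control range and its mates below every control (log2 -0.27, SE 0.15, adjusted p = 0.449 against Q3R, and log2 -0.31, adjusted p = 0.251 against the 9 pooled controls). Without CR replicate 1 the drop was called in all 3 comparisons, with log2 fold changes of -0.47 (adjusted p = 0.0486) against Q3R, -0.50 (adjusted p = 0.00818) against Q1R and -0.49 (adjusted p = 0.0163) against the pooled controls. Many other genes were then called too, in the same order 820 of 21352, 2183 of 21398 and 968 of 22467. With all libraries the genes called were 1, 337 and 9. No other member was called with any library left out. CESA3, the partner of CESA1, had a log2 fold change of -0.08 (SE 0.13) against Q3R with all libraries.

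In leaves CESA4 measured 14.22, 17.59 and 23.81 CPM in CL and 16.85, 9.042 and 10.36 CPM in Q3L. The groups overlapped, and the log2 fold change of 0.58 (SE 0.27) had an adjusted p of 0.702. Unadjusted p-values under 0.05 came from CESA4 against Q1L (log2 0.50) and against the pooled controls (log2 0.44, adjusted p = 0.966), and from CESA3 (log2 -0.33) and CESA6 (log2 -0.42) against Q1L. The other secondary wall members differed in sign from each other against Q3L, CESA7 at log2 0.29 (SE 0.30) and CESA8 at -0.10 (SE 0.45).

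**Figure D4:**
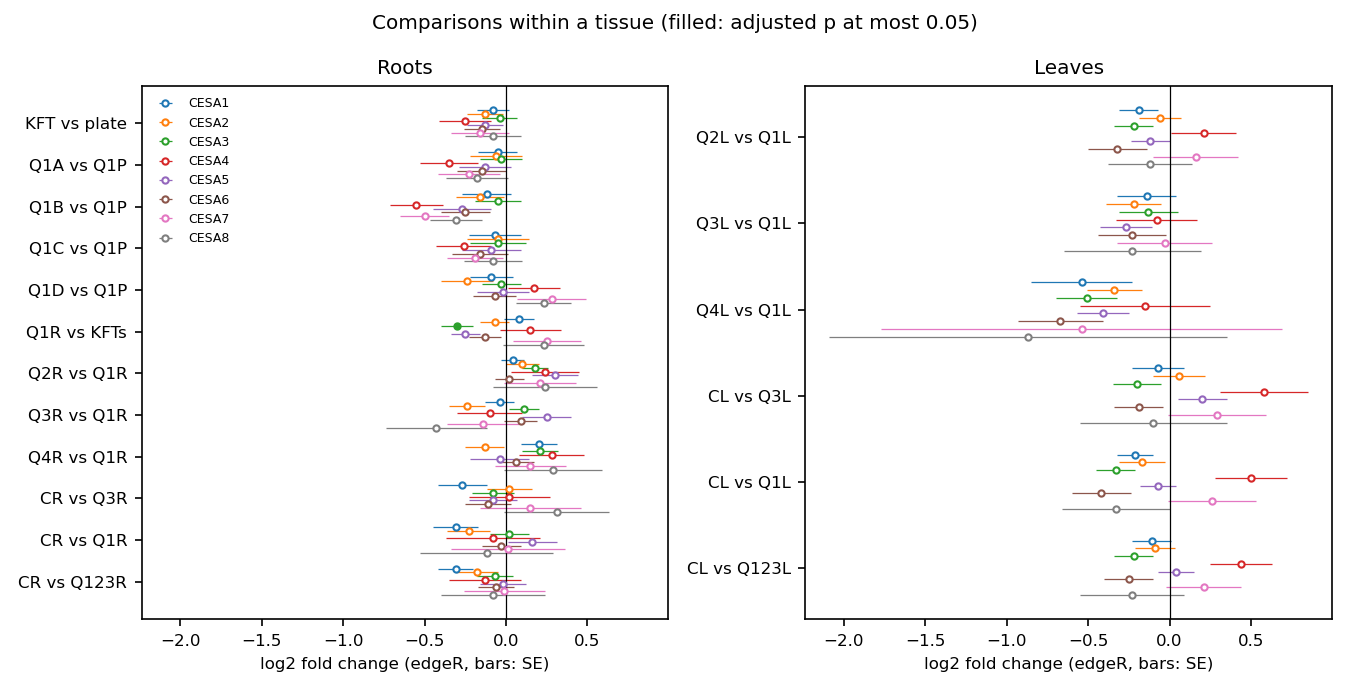
Log2 fold change with SE (x axes) of CESA1 to CESA8 in each comparison within roots (left) and within leaves (right), listed on the y axes. The only filled point is CESA3 in Q1R against the 4 Q1 KFTs, -0.30, and the widest bars are those of CESA7 and CESA8 in Q4L, where 1 library has no count for either gene.

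The difference between the root and the leaf change was tested directly. It called no member by edgeR at Q2, Q3, Q4 or under clinorotation, where 0.0977%, 0.0089%, 0.00889% and 0.0311% of genes were called. At Q4 every member had a positive estimate, from 0.20 to 2.09, and CESA3 (log2 0.71, SE 0.21, adjusted p = 0.664) was called by DESeq2 (adjusted p = 0.0422). CESA6 (log2 0.72) there, and CESA3 (log2 0.43) and CESA5 (log2 0.45) at Q2, were the others with an unadjusted p under 0.05. For CESA1 the Q4 estimate moved from 0.74 (SE 0.35) to 0.42 (SE 0.15) without Q4L replicate 1.

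The 15 groups were ordered by mean CPM for each gene. For CESA1, CESA2, CESA3, CESA4, CESA6, CESA7 and CESA8 every root group lay above every leaf group, and for CESA5, CESA9 and CESA10 every leaf group lay above every root group. CESA10 was near 0 in both tissues, and its tissue difference was not called. How many of all genes have such an order was not counted, while 71.5% were called between roots and leaves of Q1 to Q4. Q4L was the lowest leaf group for 8 members, CESA1 to CESA8. For the secondary wall members this place rests on Q4L replicate 1, as does the gap to the next group for CESA1. Its 2 mates measured 16.23 and 14.37 CPM of CESA4 and 7.158 and 6.806 CPM of CESA8, above the next lowest leaf means of 12.08 CPM (Q3L) and 6.614 CPM (CL), and 11.63 and 8.558 CPM of CESA7, on either side of the 9.211 CPM of Q3L. For CESA1 the mates measured 228.3 and 228.8 CPM, on either side of the CL mean of 228.7 CPM. For CESA3 they measured 256.3 and 262.8 CPM, a little below the CL mean of 263.4 CPM. CR was the lowest root group for CESA1 (399.2 CPM), CESA3 (482.4 CPM) and CESA6 (275.7 CPM), and Q1B for the secondary wall members CESA4 (27.93 CPM), CESA7 (21.51 CPM) and CESA8 (16.94 CPM). Q1P, the plate, was the highest root group for CESA2, CESA3, CESA5 and CESA6, though no member was called between plate and KFTs. For CESA3, Q1A, Q1B, Q1C and Q1D followed it directly, with Q1D above Q4R (lowest 563.7 against highest 544.6 CPM). Most neighbours did not separate. The same pairs were not counted over all genes. Of the 14 neighbouring pairs, the libraries did not overlap in 3 for CESA1 and CESA3, in 1 for CESA2, CESA4, CESA5, CESA7 and CESA8 and in 0 for CESA6, CESA9 and CESA10. For CESA1 these were Q4R above Q1R (lowest 553.9 against highest 522.4 CPM), CR above Q1L (329.5 against 291.5 CPM) and Q1L above Q2L (252.8 against 250.6 CPM).

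In roots the secondary wall members CESA4, CESA7 and CESA8 varied closely together, and the primary wall members less so. Correlations are of log2(CPM + 0.5) across the libraries of a tissue and are a description. Libraries of 1 group share a KFT or plate, and depth differed between libraries. The root libraries span Q1A to Q1D and Q1R, between which 27.5% of genes were called. The part of depth in r was not tested. Over the 30 root libraries CESA4, CESA7 and CESA8 had pairwise Pearson r of 0.924 to 0.952 (Spearman 0.927 to 0.952), and 0.948 to 0.955 on deviations from group means. CESA1, CESA3 and CESA6 had r of 0.505 to 0.779 (Spearman 0.247 to 0.804), and 0.801 to 0.83 within groups. Pairs across the 2 sets had r of 0.166 to 0.567 (Spearman 0.14 to 0.621), and 0.375 to 0.597 within groups. The ranges met: CESA1 had r of 0.567 with CESA8 and 0.565 with CESA4, above its 0.505 with CESA3. Without Q1B replicate 2 the secondary wall pairs had r of 0.929 to 0.948, the CESA1, CESA3 and CESA6 pairs 0.492 to 0.787 and the cross pairs 0.144 to 0.554. The CESA4 to CESA7 ratio per length stayed between 0.9145 and 1.306 in roots, a coefficient of variation of 8.472%, while the summed CPM of the 3 secondary wall members ran from 57.59 to 147.4 CPM, the highest in CR replicate 1. In the 15 leaf libraries the secondary wall pairs had r of 0.795 to 0.938, the CESA1, CESA3 and CESA6 pairs 0.874 to 0.964 and the cross pairs 0.488 to 0.896. Without Q4L replicate 1 these became 0.341 to 0.837, 0.75 to 0.919 and -0.236 to 0.0473, so that the high cross-set values in leaves rest on that library. The 0.341 is CESA4 with CESA8 (Spearman 0.0945), below the 0.774 of CESA2 with CESA5 in the same 14 libraries.

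**Figure D5:**
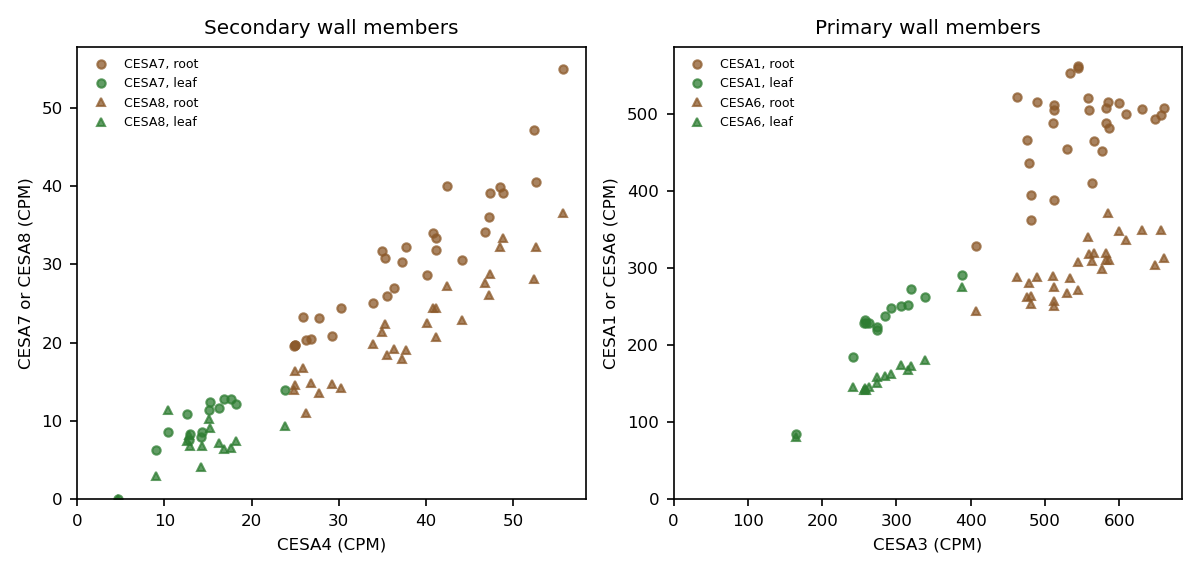
Left, CESA7 (circles) and CESA8 (triangles) against CESA4, and right, CESA1 (circles) and CESA6 (triangles) against CESA3, in CPM on both axes from 0, one point per library, roots brown and leaves green. The secondary wall points climb along one band within roots (r 0.924 to 0.952 on the log scale) and the single leaf point at 4.691 CPM of CESA4 and 0 of CESA7 and CESA8 is Q4L replicate 1.

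Among 19184 genes with a mean of at least 1 CPM in roots, the 5 most like the mean of CESA4, CESA7 and CESA8 over the 30 root libraries were IRX6 (COBL4, a COBRA-like protein; r = 0.929), IRX12 (LAC4, a lignin laccase; r = 0.912), AT2G28315 (r = 0.86), GAUT12 (IRX8, a xylan-related glycosyltransferase; r = 0.857) and AT3G27200 (r = 0.837). Of these, IRX6, IRX12 and GAUT12 were in the enzyme list, whose 19 members had a median r of 0.73, while 10 regulators with enough counts had a median of 0.282 and all genes 0.0088. For the mean of CESA1, CESA3 and CESA6 the nearest root genes were MMT (r = 0.86), AT5G47480 (0.858), AT1G24300 (0.838), ERMO2 (0.833) and AT3G59290 (0.825). In leaves the 5 nearest to CESA4, CESA7 and CESA8 over 15 libraries were AT1G73570 (0.975), AT4G02110 (0.973), AT5G61880 (0.97), BRCA2(IV) (0.967) and AT1G21810 (0.967). For CESA1, CESA3 and CESA6 they were NINJA (0.978), Tudor1 (0.966), AT3G11960 (0.964), AT2G21390 (0.958) and AT2G41830 (0.954). In leaves 663 genes reached r of 0.9 with the secondary wall mean and 255 with the primary wall mean, which became 0 and 8 without Q4L replicate 1. In that smaller set the nearest genes were AT5G01350 (0.876) for the secondary wall mean and AT2G26440 (0.941), NINJA (0.939), WRKY6 (0.917), AGP17 (0.916) and AT1G51890 (0.913) for the primary wall mean.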

How the data were processed

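Poly(A) RNA from roots or leaves was sequenced as paired reads. The authors trimmed reads with cutadapt, aligned them to TAIR10 with STAR, removed duplicates with samtools and an in-house step, and counted unique reads per gene with HTSeq. The use of strand in counting is not given in the sources used here. The deposited tables hold raw counts per gene beside the results of the authors' DESeq2 comparisons, which were not used. The 24 tables were joined into 45 libraries, and 0 shared values differed between tables. The reference annotation differs from that used for counting, so that it served for positions, lengths and sequences only.

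CPM was computed from the deposited counts over library totals. The main test was edgeR 4.0.16 in R 4.3.3 with filterByExpr, TMM and glmQLFTest, on the libraries compared only, with Benjamini-Hochberg adjustment over all genes tested. A gene was called at an adjusted p of at most 0.05, and counted as a DEG where it also changed at least 2-fold. Alternatives were DESeq2 1.42.0, RLE normalization, no filter, the spread over all libraries, a replicate block, leaving out each library, and pooled controls without Q2. For the KFTs against the plate, counts summed per vessel were a further alternative. Scripts were tested on simulated data. Floors of 0 counts are 3 counts and cover counting error only. Libraries of a group were pools of different plants from 1 KFT or plate, so that p-values measure the spread within it.

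Roots and leaves were dissected from the same sets of plants, but that same-numbered libraries share a set is not given in the sources used here. Their deviations from group means correlated at -0.0533 to 0.114, over 0.1 in 1 of 15 pairs, so the replicate block was an alternative, quoted where it changed a call. Named from each list were up to 4 called genes with the largest fold change per comparison, and the 5 genes nearest in pattern. Of the genes this rule gives, those of the clinorotated tissues are given as counts only, and for Q1R against the 4 KFTs those of 2 lists are named. MYB58 of the regulator list is not analysed here. Members and lists were chosen with earlier results of these data known.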

Additional observations from a re-analysis of the deposited data

How the results depend on the processing

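Roots against leaves gave 9 called members under DESeq2, RLE normalization, no filter, the spread over all libraries and the replicate block, and 9 to 10 when 1 library was left out. For clinorotated roots against leaves, 6 members became 3 with the replicate block and 3 to 7 with 1 library left out. CESA1 and the secondary wall members CESA7 and CESA8 lost their calls under the block, and CESA7 and CESA8 also with the spread over all libraries (adjusted p = 0.0823 and 0.0543), where CESA9 was called (adjusted p = 0.0282). For Q1R against the 4 KFTs, 1 member became 2 with DESeq2 and 0 with no filter (CESA3, adjusted p = 0.0517), and 0 to 1 with 1 library left out. Clinorotated roots against Q3, Q1 and the pooled controls gave 0 to 1 with 1 library left out, the 1 always being CESA1 without CR replicate 1. The Q4 difference between tissues gave 1 with DESeq2. The replicate block changed no other member call. The cause of these shifts was not tested. No called member value changed direction in the 3249 member values recomputed, and 188 values that were not called changed sign. On the TMM scale 37 of 150 group levels moved by more than 1 SD.

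DESeq2 called more genes than edgeR within a tissue, which bears on the backgrounds quoted. It called 522 against 186 for the KFTs against the plate, 294, 357, 198 and 319 against 13, 19, 10 and 36 for Q1A to Q1D, and 94 against 0 among the KFTs. It called 489, 2006 and 589 against 77, 953 and 191 for Q2R, Q3R and Q4R, and 163, 53 and 50 against 0, 2 and 0 for the leaf times. It called 411, 1323 and 384 against 1, 337 and 9 for clinorotated roots and 131, 229 and 43 against 0, 14 and 0 for clinorotated leaves. For the differences between tissues at Q2, Q3, Q4 and clinorotation it called 435, 285, 153 and 436 against 22, 2, 2 and 7. Depth limits CESA9 and CESA10, whose levels rest on few counts per library.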
